A study of Mus musculus with 40 samples.

Results

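Prostaglandin E2 (PGE2) synthesis genes and PGE2 receptors were examined in mpkCCD, a collecting duct cell line of mouse kidney that was immortalized. The set has 10 genes, chosen by symbol from the 55414 genes of the deposited expression table: Pla2g4a, Ptgs1, Ptgs2, Ptges, Ptges2, Ptges3, Hpgd, Ptger1, Ptger3 and Ptger4. Every library, controls included, came from polarized cells on Transwell membranes that received dDAVP (a vasopressin analogue) at 0.1 nM for 72 hours. There were 22 libraries. Unmodified control clones gave 11 of them, ATF1-KO cells 5, ATF1/CREB1-KO cells 3, and cells with the ATF1/CREB1/CREM-KO label the remaining 3. These targets form the CREB family of cAMP-responsive transcription factors. The labels describe a further 18 rescue samples, in which a family member was put back into triple-knockout cells, and those were not analysed here. How many clones stand behind each knockout label is not given in the sources used here, so the p-values below measure the spread between these libraries only. By their numbers in the labels the libraries form 3 consecutive series, called runs here: control clones 1 to 5 with ATF1-KO (run 1), control clones 6 to 8 with ATF1/CREB1-KO (run 2), and control clones 9 to 11 with ATF1/CREB1/CREM-KO (run 3). Each knockout label was compared with the control clones of its own run.

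PGE2 is made in steps. Phospholipase A2 releases arachidonic acid from membrane lipid, a cyclooxygenase turns it into prostaglandin H2, and a PGE synthase turns that into PGE2, which the dehydrogenase encoded by Hpgd inactivates. In the collecting duct PGE2 acts through G protein-coupled receptors. EP1 signals mainly through calcium, EP3 through the inhibitory G protein that lowers cAMP, and EP2 and EP4 through the stimulatory G protein that raises it, so that the receptors can oppose or mimic vasopressin, whose V2 receptor also raises cAMP. cAMP activates protein kinase A, which phosphorylates CREB, and Ptgs2 is a textbook gene with a cAMP response element near its start.

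Because the knockouts remove factors that bind this element, the promoters of the 10 genes were searched in the RefSeq promoter table (GRCm38.p6), which holds 250 bases before and 50 after a gene's start. It had 10 promoters for 9 of the genes, among them 2 for Pla2g4a. The whole palindromic element, TGACGTCA, was in 0 of the 10 promoters and in 1.79% of all 32851 promoters of the same length. The half-site, TGACG or CGTCA depending on the strand, was in 2 of the 10, Ptgs2 and Ptges3, and in 20.81% of all promoters. Every whole element also counts as a half-site. The stretches of both genes are shown on the plus strand, which is the coding strand of each, with the half-site in capitals; it starts 13 bases after the RefSeq start in Ptgs2 (chr1:150099984-150100060) and 11 bases after it in Ptges3 (chr10:128058933-128059011).
Ptgs2: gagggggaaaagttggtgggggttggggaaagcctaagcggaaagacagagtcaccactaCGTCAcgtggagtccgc
Ptges3: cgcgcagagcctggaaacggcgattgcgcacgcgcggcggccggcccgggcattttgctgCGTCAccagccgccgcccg
The letters show a match only. Occupancy by CREB family proteins was not measured in these libraries. Ptgs2 and Ptges3 are the 2 members whose difference from control had the same sign under each of the 3 knockout labels, in opposite directions, with Ptgs2 higher and Ptges3 lower. This was seen after their values, and neither gene passed the test under any label. The Ptges3 change in ATF1-KO was -0.06 and reached 0.01 when single libraries were left out. How many of all genes keep 1 sign under the 3 labels was not counted, and a link to the half-site was not tested.

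Values are TPM, a transcript abundance that is scaled for transcript length and to one total per library. Read depth is therefore unknown, and no counting interval is given. Run 2 stood apart from the others: genes with ribosomal protein symbols took 7.29% to 15.4% of its TPM, against 2.73% to 3.58% in run 1 and 3.17% to 4.20% in run 3. Within run 2 the share was 13.3%, 12.8% and 7.29% in the ATF1/CREB1-KO libraries. In control clones 6 to 8 it was 15.3%, 14.5% and 15.4%. The part of this difference in the changes under ATF1/CREB1-KO was not tested. The collecting duct label held for 10 of 14 principal cell markers, with a mean of at least 1 TPM, and for 5 of 5 epithelial markers. Among markers of other cells, 0 of 4 endothelial, 0 of 6 fibroblast and 0 of 4 thick ascending limb or distal tubule genes reached that mean. It was reached by 2 of 6 intercalated cell genes, 1 of 5 proximal tubule genes (Lrp2) and 1 of 5 immune genes (Cd68), while Cdh5, Col1a2, Adgre1 and Lyz2 were listed at 0 in all 22 libraries. The distal tubule marker sum was 1.96 to 4.40 TPM in ATF1/CREB1/CREM-KO against 0.04 to 0.14 TPM in its controls. The principal cell sum was 788 to 1595 TPM against 1676 to 3807 TPM. This sum includes Aqp2, which alone was 15.1 to 16.05 TPM in ATF1/CREB1/CREM-KO against 641 to 2279 TPM. The part of these sums in the changes under this label was not tested. Of the targeted genes, Atf1 was 17.5 to 37.8 TPM in ATF1-KO and 37.8 to 49.0 TPM in its controls. It was 15.1 to 23.7 TPM in ATF1/CREB1-KO against 23.3 to 26.2 TPM, and 23.7, 40.8 and 32.7 TPM in ATF1/CREB1/CREM-KO against 39.8 to 40.5 TPM, so that both pairs of groups overlapped in range. Creb1 was 18.2 to 19.4 TPM in ATF1/CREB1/CREM-KO against 35.9 to 39.0 TPM, and 2.72 to 3.86 TPM in ATF1/CREB1-KO against 4.98 to 6.69 TPM. Crem was not lower under any label, with 26.0 to 33.8 TPM in ATF1/CREB1/CREM-KO against 20.0 to 24.9 TPM. Whole-gene TPM does not show whether the edited part is intact, so the groups are named by their labels. In bulk RNA, fewer cells that express a gene and less RNA per cell cannot be told apart.

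Of the 10 genes, 8 were expressed and 2 were at or near 0. In the control clones of run 1 the order from high to low was Ptgs1 at 162 ± 27.6 TPM, Ptges3 at 140 ± 28.7 TPM, Pla2g4a at 109 ± 11.7 TPM and Ptges2 at 75.2 ± 10.3 TPM (SD, n = 5). Below them came Ptger1 at 37.5 ± 23.4 TPM, Ptges at 18.8 ± 11.9 TPM, Ptgs2 at 13.2 ± 4.52 TPM and Ptger4 at 12.8 ± 2.57 TPM. The ranges of Pla2g4a and Ptges2 did not overlap, and neither did those of Ptges2 and Ptger1. All other neighbours in this order overlapped. Ptgs1, the cyclooxygenase regarded as constitutive, was at a higher level than 94.1% of the genes detected in these clones, and Ptgs2, the inducible one, than 63.3%. The ratio of Ptgs1 to Ptgs2 was 13.8 ± 6.64 in control clones 1 to 5, 19.7 ± 5.75 in clones 6 to 8 (n = 3) and 12.8 ± 1.68 in clones 9 to 11 (n = 3). Ptgs1 thus exceeded Ptgs2 in each control clone, and it did so in each knockout library too, where the ratio lay between 6.94 and 20.6.

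Hpgd, the PGE2-degrading dehydrogenase, was listed at 0 in all 22 libraries. Ptger3, which encodes EP3, was at or below 0.27 TPM throughout. Neither reached the mean of 1 TPM needed for the test. Ptger2, which encodes EP2 and is outside the 10 genes, was listed at 0 in every library except 1 with 0.03 TPM. A value listed at 0 can be a gene without reads or an estimate that failed.

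The control clones of runs 1 and 3 gave similar levels, and those of run 2 gave low ones. Relative to run 1, the run 3 control mean was 99.1% for Ptgs1, 96.5% for Ptgs2, 107% for Ptges3 and 144% for Ptger1. In run 2 it was 17.0% for Ptgs1, 11.1% for Ptgs2, 15.0% for Ptges2, 16.0% for Ptger4 and 18.9% for Pla2g4a. The members least low there were Ptger1 at 36.1%, Ptges at 49.7% and Ptges3 at 58.6%. This shift is between control clones, and it moved with the high ribosomal protein share of run 2. Its part in the lower levels was not tested. The plot of member levels shows it in each panel as a run 2 control bar below the control bars of runs 1 and 3.

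**Figure D1:**
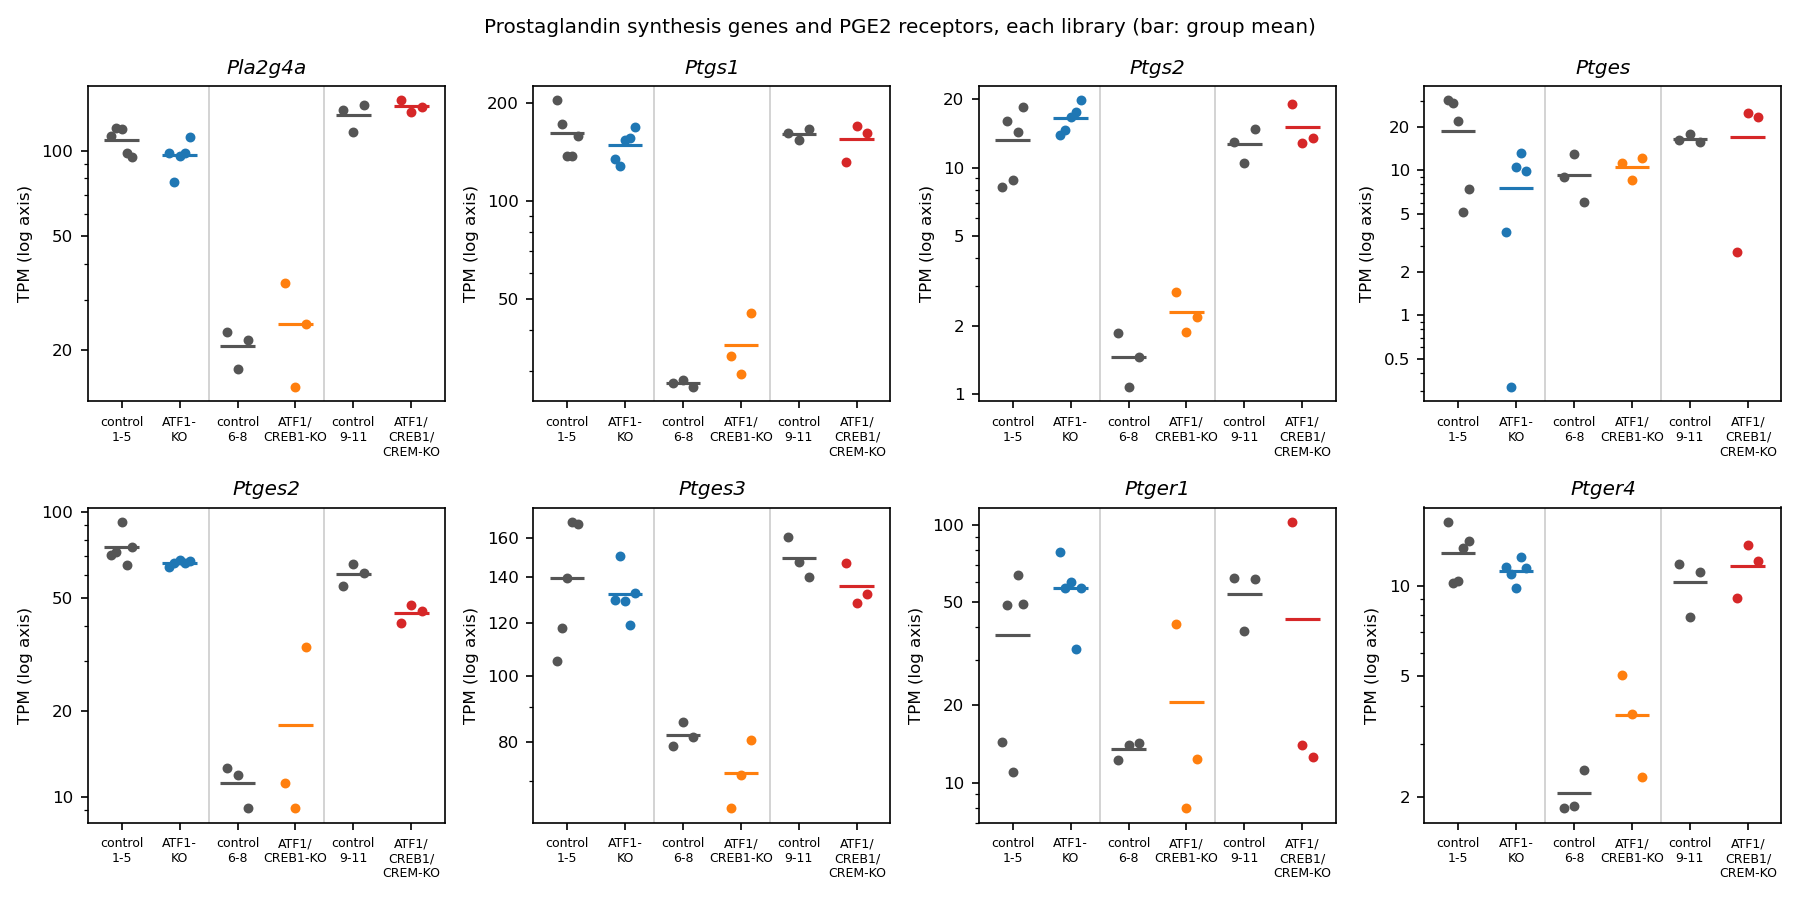
TPM of the 8 expressed members in each of the 22 libraries (points, log axis), with a bar at the mean of each group and vertical lines between runs. Ptgs1 averages 162 and 160 TPM in the control clones of runs 1 and 3 and is at 26.8 to 28.1 TPM in those of run 2, and the Ptger1 and Ptges points of single libraries lie far apart within groups.

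In the limma test of log2(TPM + 1) with Benjamini-Hochberg adjustment over all genes, called at an adjusted p under 0.05, 0 of the 8 tested members were called in any of the 3 own-run comparisons. Among all genes, 0.0% of 13318 were called for ATF1-KO, 0.0715% of 12579 for ATF1/CREB1-KO and 9.17% of 13258 for ATF1/CREB1/CREM-KO, which is the background to read the members against. Unadjusted p-values under 0.05 were had by 0, 0 and 1 members, beside 7.61%, 9.53% and 27.0% of all genes. The median log2 change of the 8 members was -0.14 for ATF1-KO, 0.30 for ATF1/CREB1-KO and -0.10 for ATF1/CREB1/CREM-KO, beside -0.0035, -0.03 and -0.05 over all genes tested. The latter 2 labels, which both name CREB1, were also set jointly against control clones 6 to 11 with run as a term. In that fit 0 of 8 members were called, beside 8.39% of all genes. An unadjusted p under 0.05 was had by 1 of 8 members, beside 3159 of all 13158 genes tested. A missed threshold does not show that a gene did not change, and the intervals differ greatly in width between members.

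**Figure D2:**
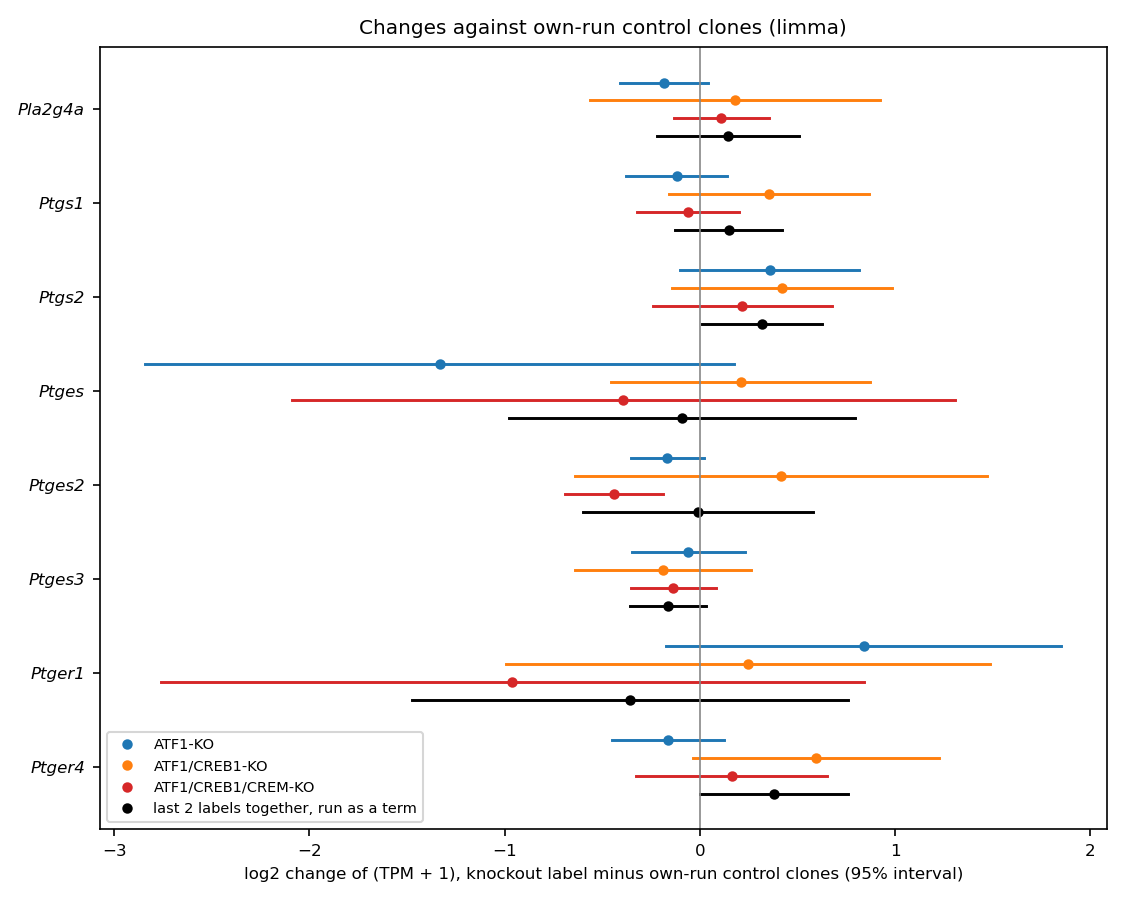
Log2 change of (TPM + 1) of each of the 8 members under each knockout label against its own-run control clones (points) with 95% intervals (lines); black marks the libraries of both labels that name CREB1. The Ptges2 interval for ATF1/CREB1/CREM-KO, -0.69 to -0.19, lies below 0, and the widest intervals belong to Ptges and Ptger1.

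Release of arachidonic acid was represented by Pla2g4a, the cytosolic phospholipase A2. Its mean was 96.3 ± 12.1 TPM in ATF1-KO (SD, n = 5) and 109 ± 11.7 TPM in its controls, a log2 change of -0.18 (95% interval -0.41 to 0.04). In ATF1/CREB1/CREM-KO it was 143 ± 6.53 TPM against 133 ± 14.6 TPM, a log2 change of 0.11 (-0.13 to 0.35). In ATF1/CREB1-KO it was 34.4, 14.8 and 24.7 TPM in the single libraries against 17.2 to 23.1 TPM, so that the knockout libraries lay on both sides of the controls. For runs 1 and 3 these intervals correspond to 0.753 to 1.03 times and 0.912 to 1.28 times the control on the TPM + 1 scale.

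Ptgs1 stayed within narrow limits in runs 1 and 3. ATF1-KO libraries had 148 ± 16.4 TPM against 162 ± 27.6 TPM (SD, n = 5), and ATF1/CREB1/CREM-KO libraries had 154 ± 20.0 TPM against 160 ± 6.22 TPM (n = 3). The intervals of these changes ran from 0.770 to 1.10 times and from 0.799 to 1.15 times the control on the TPM + 1 scale. In run 2 its values were 33.4, 29.4 and 45.0 TPM in ATF1/CREB1-KO and 27.5, 28.1 and 26.8 TPM in control clones 6 to 8. All 3 knockout libraries were above all 3 controls there, with a log2 change of 0.35 (95% interval -0.16 to 0.86, limma adjusted p = 0.649). These knockout libraries also had a lower ribosomal protein share than all 3 controls, and its part in this change was not tested.

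Ptgs2 was higher on average under each label. In run 1 it was 14.0, 14.6, 16.8, 17.6 and 19.8 TPM in ATF1-KO and 8.25, 16.1, 8.84, 14.3 and 18.5 TPM in control clones 1 to 5. The groups overlapped because control clones 2, 4 and 5 lay within the knockout range, while clones 1 and 3 lay below it. In run 2 it was 2.83, 1.88 and 2.19 TPM in ATF1/CREB1-KO against 1.87, 1.08 and 1.46 TPM, so that the lowest knockout library was just above the highest control. In run 3 it was 19.0, 12.8 and 13.5 TPM in ATF1/CREB1/CREM-KO against 13.0, 10.5 and 14.7 TPM, with 1 high library, replicate 1. The log2 changes were 0.36, 0.42 and 0.22, with limma adjusted p of 0.713, 0.623 and 0.505. With both labels that name CREB1 together the change was 0.32 (95% interval 0.01 to 0.63, unadjusted p = 0.0435, adjusted p = 0.192 in limma). In that fit 3159 of all 13158 genes tested had an unadjusted p under 0.05.

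Ptgs1 and Ptgs2 were the 2 of 8 tested members whose ATF1/CREB1-KO libraries did not overlap the controls, and 19.0% of all genes tested in run 2 had groups that did not overlap. In run 1 this held for 0 of 8 members and 1.3% of all genes. In run 3 it held for 1 of 8, Ptges2, and for 34.6% of all genes.

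Ptges2, the membrane-associated PGE synthase 2, came nearest to a call. It was 40.8, 47.3 and 45.1 TPM in ATF1/CREB1/CREM-KO and 54.9, 65.9 and 61.0 TPM in control clones 9 to 11. The highest knockout library was below the lowest control. The knockout mean was 73.3% of the control mean, the log2 change was -0.44 (SE 0.11), and the limma adjusted p was 0.0502, just above the threshold. In ATF1-KO the values were 64.4 to 67.9 TPM against 65.2 to 92.4 TPM, a log2 change of -0.17 (95% interval -0.36 to 0.02, adjusted p = 0.695), and the ATF1-KO libraries were close to each other, with an SD of 1.38 TPM against 10.3 TPM in their controls. In ATF1/CREB1-KO 2 libraries were at 11.2 and 9.14 TPM, within or near the control range of 9.20 to 12.6 TPM, and replicate 3 was at 33.5 TPM. That library also had the lowest ribosomal protein share of run 2, 7.29%, and the part of this in its Ptges2 level was not tested. Without it the log2 change in ATF1/CREB1-KO was -0.13 in place of 0.42.

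Ptges3, known also as the HSP90 cochaperone p23 and named for its cytosolic PGE synthase activity, was 132 ± 11.4 TPM in ATF1-KO against 140 ± 28.7 TPM (SD, n = 5). It was 72.0 ± 8.40 TPM in ATF1/CREB1-KO against 82.0 ± 3.503 TPM, and 136 ± 9.82 TPM in ATF1/CREB1/CREM-KO against 149 ± 10.4 TPM (n = 3). The log2 changes of -0.06, -0.19 and -0.14 all lay below 0 and none was called, with limma adjusted p of 0.918, 0.764 and 0.379. The sign in run 1 turned to 0.01 when control clone 4 or control clone 5 was left out. The annotation holds a processed pseudogene of Ptges3, with which reads can be shared, so its level is uncertain to that extent.

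Ptges, the inducible microsomal PGE synthase that works together with Ptgs2, had libraries far apart within groups in runs 1 and 3. In control clones 1 to 5 it was 30.5, 29.0, 22.1, 5.17 and 7.48 TPM, which are 3 high and 2 low clones. In ATF1-KO it was 3.74, 0.32, 10.6, 13.3 and 9.92 TPM, and replicate 2 was far below the others. The knockout mean was 40.1% of the control mean, and the limma log2 change was -1.33 with a 95% interval of -2.84 to 0.18 (adjusted p = 0.695). Of the ATF1-KO libraries, 2 were below the low control clones 4 and 5 and 3 were above those, and none reached the 3 high clones. In run 2 all libraries lay between 6.07 and 13.1 TPM, with a log2 change of 0.21 (-0.46 to 0.87). In run 3 it was 16.1, 17.9 and 15.6 TPM in the controls and 2.75, 25.02 and 23.4 TPM in ATF1/CREB1/CREM-KO. Replicate 1 was below all controls there and replicates 2 and 3 were above them.

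Ptger1, which encodes EP1, also had such spread. It was 14.4, 48.9, 11.1, 63.8 and 49.2 TPM in control clones 1 to 5, so that clones 1 and 3 were low, and 78.3, 56.9, 59.8, 33.0 and 57.1 TPM in ATF1-KO. The log2 change in run 1 was 0.84 (95% interval -0.17 to 1.85, limma adjusted p = 0.698). In run 2 ATF1/CREB1-KO replicate 1 was at 41.4 TPM, while replicate 2, at 7.95 TPM, was below the controls at 12.2 to 14.3 TPM and replicate 3, at 12.4 TPM, was within them. In run 3 the controls had 62.1, 38.7 and 61.4 TPM, and ATF1/CREB1/CREM-KO had 102.7 TPM in replicate 1 and 14.1 and 12.6 TPM in the other two. Its log2 change was -0.96 with an interval from -2.76 to 0.84 (adjusted p = 0.454).

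Replicate 1 of ATF1/CREB1/CREM-KO thus stood apart from the other two in both genes. Without it, as one of the planned omissions of single libraries, 3 of 8 members were called, against 25.1% of all 13233 genes then tested. Ptger1 was lower by a log2 change of -1.91 (limma adjusted p = 0.00194), Ptges2 was lower by -0.38 (adjusted p = 0.0328), and Ptges was higher by 0.52 (adjusted p = 0.0156), a sign opposite to that with all libraries. That fit has 2 knockout libraries, and these were alike: their chromosome medians, described further on, differed by at most 0.056 on any of 20 chromosomes, while they differed from replicate 1 by 0.724 and 0.755 on chromosome 16. Whether replicates 2 and 3 are separate clones is not given in the sources used here. The Aqp2 loss under this label was present in all of its libraries, with 15.1, 16.1 and 15.3 TPM against 641 to 2279 TPM, so replicate 1 did not stand apart in Aqp2, the vasopressin-regulated water channel.

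**Figure D3:**
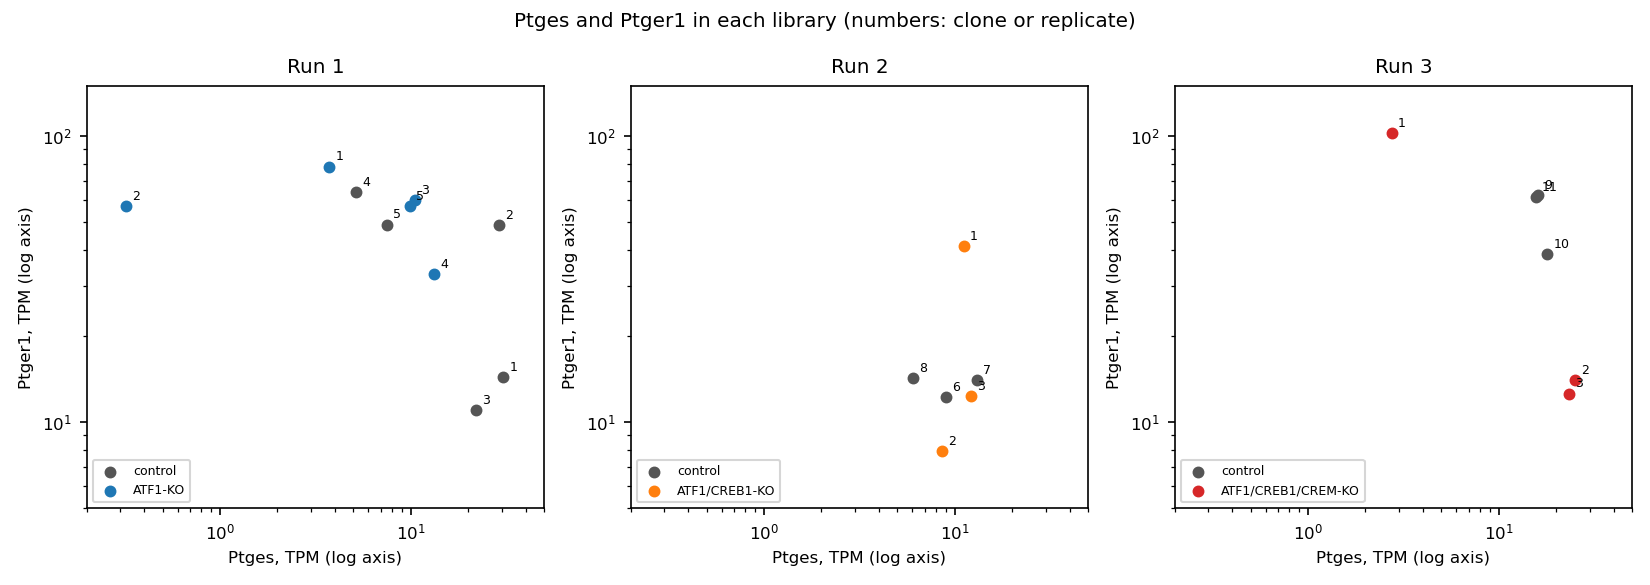
Ptges (horizontal) against Ptger1 (vertical) in each library, in TPM on log axes, with 1 panel per run and the clone or replicate number beside each point. In run 3, ATF1/CREB1/CREM-KO replicate 1 is at the upper left with 102.7 TPM of Ptger1 and 2.75 TPM of Ptges, and replicates 2 and 3 are at the lower right, beyond the controls on both axes.

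Across libraries of a run, 28 pairs of members were correlated on log2(TPM + 1). Ptges and Pla2g4a in run 1 had the 1 Pearson correlation with an adjusted permutation p under 0.05, r = 0.898 over 10 libraries (permutation p = 0.00108, adjusted 0.0302). Spearman's rho was 0.758 (permutation p = 0.0146, adjusted 0.131), and r was 0.769 without the 2 libraries farthest from the median. On deviations from group means r was 0.862 (adjusted permutation p = 0.0588). On those deviations Ptges and Ptges3 had a rho of -0.891 in run 1 (adjusted permutation p = 0.0344), with r = -0.790 (adjusted permutation p = 0.0939). For Ptges and Ptges3, also on deviations, rho was 0.429 in run 2 and -0.429 in run 3 (exact permutation p = 0.4194 each, n = 6). Their r was 0.295 in run 2 and -0.700 in run 3. The log2 correlation of Ptges and Pla2g4a was not seen in run 2, where r was 0.168 (exact permutation p = 0.750, n = 6). Nor was it seen in run 3, where r was -0.440 (exact permutation p = 0.243, n = 6). For Ptges and Ptger1, r was -0.615 in run 1 (permutation p = 0.0634, adjusted 0.259), 0.257 in run 2 (exact permutation p = 0.640, n = 6) and -0.771 in run 3 (exact permutation p = 0.00556, adjusted 0.156, n = 6).

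The genes most like 3 of the members were taken from 11765 genes over the 22 libraries, each library expressed as its difference from the mean of its own-run control clones. For Ptges2 these were Nudt5 (r = 0.943), Abt1 (0.940) and Sumo3 (0.939), on 3 different chromosomes. For Ptges3 they were Septin10 (0.834), Abracl (0.802) and Mcm9 (0.799), all on chromosome 10, as is Ptges3. For Ptger1, which is on chromosome 8, they were Gmfb (0.920), Commd6 (0.897) and Dnajc15 (0.893), all on chromosome 14.

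Chromosome-wide levels were then set beside these members, a step chosen after those genes were seen. The median log2 difference of 374 chromosome 14 genes was -0.55 in ATF1/CREB1-KO replicate 2, -0.57 in ATF1/CREB1/CREM-KO replicate 2 and -0.54 in its replicate 3. It was -0.05 in ATF1/CREB1/CREM-KO replicate 1 and between -0.24 and 0.20 in the other 18 libraries. In run 1 it was -0.24 and -0.18 in control clones 1 and 3, the clones low in Ptger1, and 0.10 to 0.17 in clones 2, 4 and 5. On chromosome 8, which holds Ptger1, the median of 665 genes was -0.19 and -0.14 in control clones 1 and 3, 0.14, 0.13 and 0.05 in clones 2, 4 and 5, and 0.21, -0.01 and -0.01 in ATF1/CREB1/CREM-KO replicates 1 to 3. In ATF1/CREB1-KO replicate 1, high in Ptger1, it was -0.15. For chromosome 10 the median of 558 genes was -0.18, -0.21 and -0.08 in the ATF1/CREB1-KO libraries and -0.11, -0.16 and -0.14 in the ATF1/CREB1/CREM-KO libraries. Control clones 1 and 2, lowest in Ptges3 among the controls of run 1, were at -0.22 and -0.15. Over all genes the medians of these 6 libraries were -0.10, -0.10 and 0.12 and then -0.03, -0.05 and -0.04. The part of these chromosome-wide differences in the Ptger1 and Ptges3 values was not tested.

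**Figure D4:**
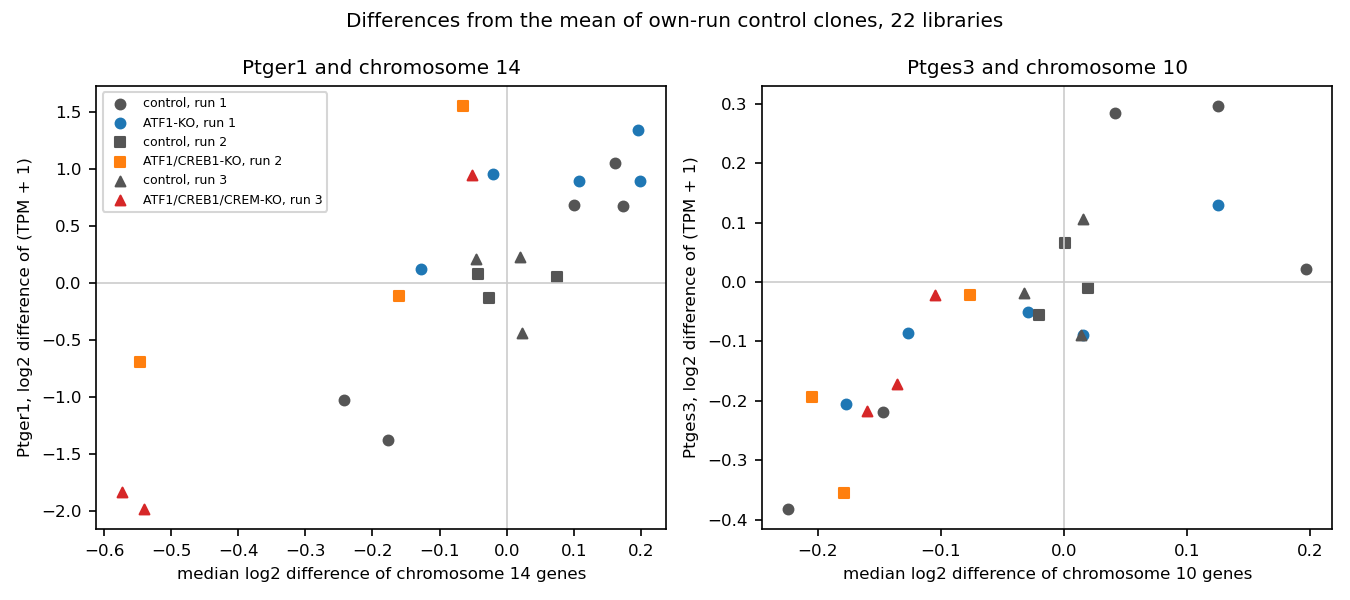
Ptger1 against the median of chromosome 14 genes (left) and Ptges3 against the median of chromosome 10 genes (right), each as a log2 difference from the mean of own-run control clones, 1 point per library. ATF1/CREB1/CREM-KO replicates 2 and 3 are at the lower left of the first panel, with chromosome medians of -0.57 and -0.54. On the right, the 6 libraries of both labels that name CREB1 have medians from -0.21 to -0.08.

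Ptger4, which encodes EP4, the cAMP-raising receptor present here, was 11.2 ± 0.960 TPM in ATF1-KO against 12.8 ± 2.57 TPM (SD, n = 5) and 11.6 ± 2.29 TPM in ATF1/CREB1/CREM-KO against 10.3 ± 2.10 TPM (n = 3). In ATF1/CREB1-KO it was 5.07, 3.77 and 2.33 TPM, and control clones 6 to 8 had 1.83, 1.86 and 2.46 TPM. Replicates 1 and 2 were above all controls and replicate 3 was within them. The log2 change was 0.59 (95% interval -0.03 to 1.22, limma adjusted p = 0.548). With both labels that name CREB1 together it was 0.38 (-0.00052 to 0.76, unadjusted p = 0.0503, adjusted p = 0.209). Ptger4 overlaps Ttc33 on the opposite strand in the annotation, and the amplified, tagmented cDNA of the kit used does not mark strand, so reads of these 2 genes cannot be told apart where they overlap.

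Whether changes differed between labels was tested in 1 limma fit of all 22 libraries, as the difference between own-run changes. Again 0 of 8 members were called, beside 1.46% of all genes for ATF1/CREB1-KO minus ATF1-KO, 3.57% for ATF1/CREB1/CREM-KO minus ATF1-KO and 0.188% for ATF1/CREB1/CREM-KO minus ATF1/CREB1-KO. In the first of these, Ptger4 differed by 0.76 on the log2 scale (unadjusted p = 0.0100, adjusted p = 0.162) and Ptgs1 by 0.47 (unadjusted p = 0.0302, adjusted p = 0.257). For ATF1/CREB1/CREM-KO minus ATF1/CREB1-KO, Ptges2 differed by -0.86 (unadjusted p = 0.0419, adjusted p = 0.575). For ATF1/CREB1/CREM-KO minus ATF1-KO, 0 members had an unadjusted p under 0.05. Among all genes, 15.5% had an unadjusted p under 0.05 for ATF1/CREB1-KO minus ATF1-KO. That share was 15.0% for ATF1/CREB1/CREM-KO minus ATF1-KO and 8.39% for ATF1/CREB1/CREM-KO minus ATF1/CREB1-KO.

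Some other eicosanoid genes were called, and their share of calls was not tested against that of the members. A list of 54 symbols of such genes covered other phospholipases, lipoxygenases and their partners, other prostaglandin synthases, receptors, transporters and reductases. Of these symbols 52 were in the table, and 25 had a mean of at least 1 TPM over all libraries. In ATF1/CREB1/CREM-KO 3 of 25 tested were called higher and 3 lower, and 19 were not called, with a median log2 change of -0.04, beside the 9.17% called among all genes. In ATF1-KO 0 of 24 were called, and 7 had an unadjusted p under 0.05, as did 7.61% of all genes. In ATF1/CREB1-KO 0 of 25 were called, and 4 had an unadjusted p under 0.05, as did 9.53% of all genes. With the labels that name CREB1 together, 3 of 26 were called higher and 1 lower, beside 8.39% of all genes.

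Pla2g7, which encodes the secreted platelet-activating factor acetylhydrolase, had the smallest adjusted p of them in run 3. It was 440, 353 and 345 TPM in ATF1/CREB1/CREM-KO and 189, 174 and 199.7 TPM in control clones 9 to 11. All knockout libraries were above all controls, and Pla2g7 rose by 1.01 on the log2 scale (SE 0.12, limma adjusted p = 0.00630). In ATF1/CREB1-KO it was 58.4, 52.1 and 82.3 TPM against 31.8 to 36.4 TPM, a log2 change of 0.86 that was not called (adjusted p = 0.368), and with both labels together it rose by 0.93 (adjusted p = 8.96e-04). In ATF1-KO the change was 0.27 (adjusted p = 0.624).

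Alox5ap encodes the 5-lipoxygenase-activating protein of leukotriene synthesis. The 5-lipoxygenase gene itself, Alox5, was at or below 0.03 TPM in all 22 libraries. Alox5ap was 15.2, 32.5 and 27.0 TPM in ATF1/CREB1/CREM-KO against 8.23, 8.14 and 5.48 TPM. In ATF1/CREB1-KO it was 44.0, 56.4 and 34.7 TPM against 15.0, 13.6 and 10.3 TPM. The groups did not overlap in either run. It rose by 1.60 in ATF1/CREB1/CREM-KO (adjusted p = 0.0235) and by 1.65 with both labels together (adjusted p = 3.81e-04), and was not called in ATF1/CREB1-KO alone, where its log2 change was 1.71 (adjusted p = 0.105). Ptgfrn, named as a negative regulator of the prostaglandin F2 receptor, was 8.06 ± 1.19 TPM against 3.22 ± 0.227 TPM in run 3 (SD, n = 3) and rose by 1.09 (limma adjusted p = 0.0131). In ATF1/CREB1-KO it was 7.87 ± 4.21 TPM against 7.26 ± 0.405 TPM.

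The genes called lower in ATF1/CREB1/CREM-KO were Abcc4, Pla2g6 and Cysltr1. Abcc4, an efflux pump that exports prostaglandins and cyclic nucleotides, was 45.8 ± 3.58 TPM against 71.8 ± 6.59 TPM (SD, n = 3) and fell by 0.64 (limma adjusted p = 0.0176). Pla2g6, a calcium-independent phospholipase A2, was 18.0 ± 1.28 TPM against 27.5 ± 3.48 TPM and fell by 0.58 (adjusted p = 0.0374). Cysltr1, a cysteinyl leukotriene receptor, was 3.87 ± 1.18 TPM against 9.53 ± 2.28 TPM and fell by 1.11 (adjusted p = 0.0386). With both labels together Pla2g6 fell by 0.48 (adjusted p = 0.0122), and Zadh2, a prostaglandin reductase gene, rose by 0.39 (adjusted p = 0.0405).

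Single libraries mattered for most of these calls. Pla2g7 was called in ATF1/CREB1/CREM-KO whichever of the 6 libraries was left out, with changes from 0.90 to 1.07. Alox5ap, Ptgfrn, Abcc4, Pla2g6 and Cysltr1 were called without ATF1/CREB1/CREM-KO replicate 1, and lost the call without replicate 2, without replicate 3, without control clone 9 or without control clone 11. Without control clone 10, Alox5ap, Pla2g6 and Cysltr1 lost it too. Their adjusted p in those fits ran from 0.0519 to 0.147, and the changes kept their sign, from 1.38 to 1.91 for Alox5ap, 1.00 to 1.19 for Ptgfrn, -0.68 to -0.56 for Abcc4, -0.64 to -0.48 for Pla2g6 and -1.30 to -0.98 for Cysltr1. With both labels together, Alox5ap, Pla2g7 and Pla2g6 were called in each of the 12 omissions. Zadh2 lost the call without any 1 of control clones 6 to 11, ATF1/CREB1-KO replicate 2 or ATF1/CREB1/CREM-KO replicates 2 and 3 (adjusted p from 0.0548 to 0.0990), with changes from 0.35 to 0.44 over all omissions.

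**Figure D5:**
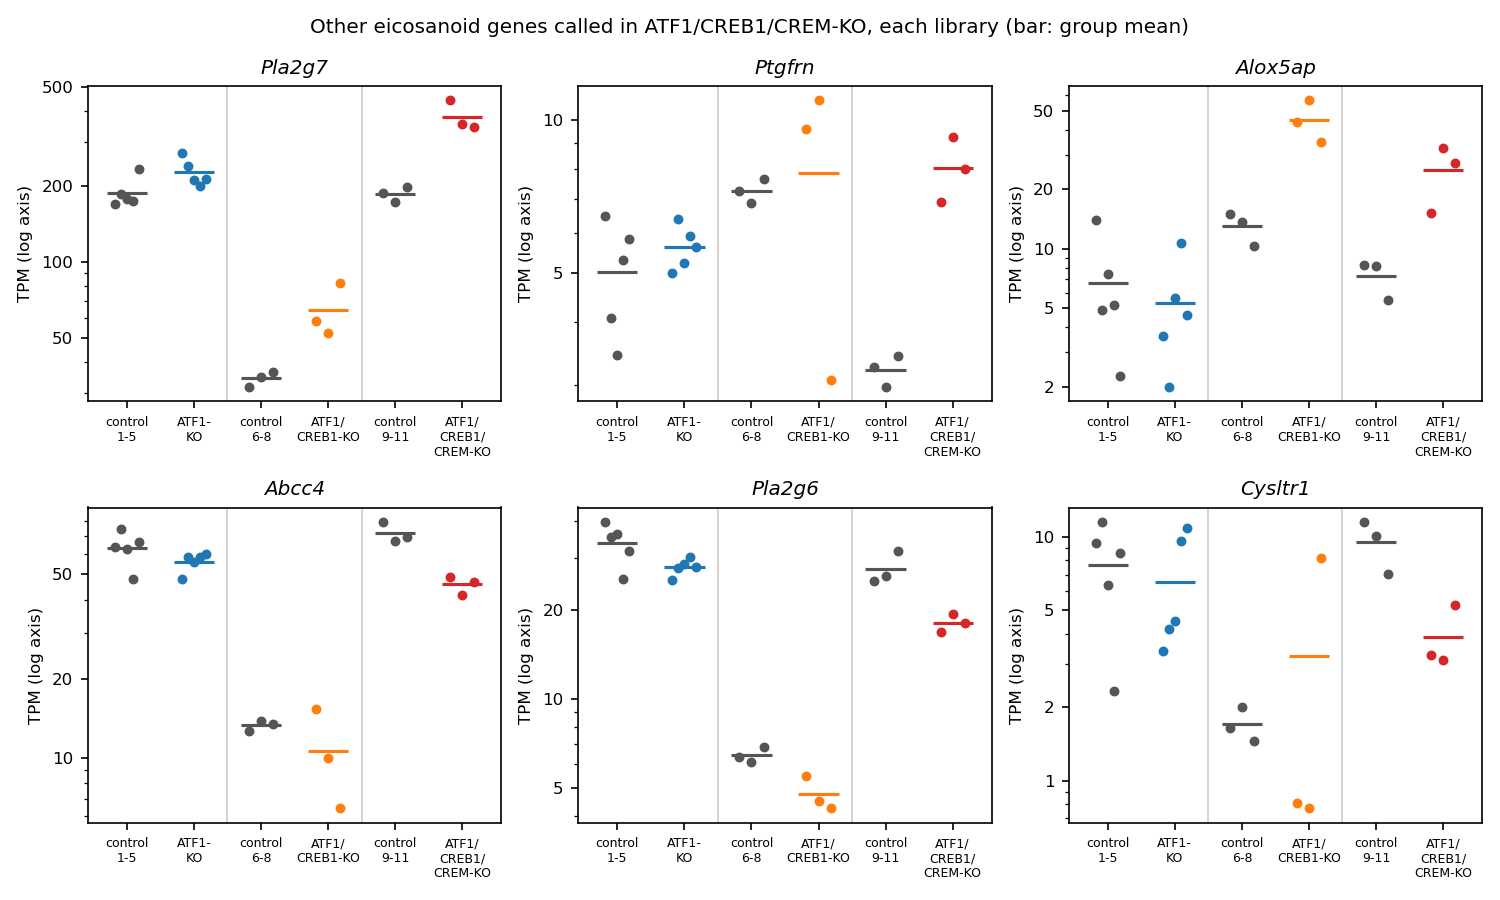
TPM of the 6 other eicosanoid genes called in ATF1/CREB1/CREM-KO in each library (points, log axis), with a bar at each group mean and vertical lines between runs. In run 3 the knockout points of Pla2g7, Ptgfrn and Alox5ap are above all control points and those of Abcc4, Pla2g6 and Cysltr1 are below all of them.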

How the data were processed

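RNA-seq libraries were made per the labels' protocols from total RNA with a SMARTer V4 Ultra Low kit and Nextera XT tagmentation. The submitters' processing notes name STAR and RSEM; versions, genome build and annotation are not given in the sources used here. The deposited values are TPM, taken as such because all 22 column totals lie between 999999 and 1000001. Names for 1399 genes were absent from the table. The plan named a count test only for the case that counts were present. No counts were used, so the test was limma 3.58.1 in R 4.3.3 (lmFit, eBayes with trend) on log2(TPM + 1). Genes averaging under 1 TPM in a fit's libraries were left out of it, and p-values were Benjamini-Hochberg adjusted across the rest. A fold change on this scale understates that of low genes. Scripts were tested on simulated data. Permutation tests in scipy 1.17.1 were two-sided, exact for 6 libraries and with 100000 resamples for 10. Gene positions came from GENCODE M21 and promoters from RefSeq; coordinates of the authors' build are not given. Alternatives were a pseudocount of 0.1, no filter, median-ratio scaling, all 11 control clones, run as a covariate, a replicate block and omission of each library. The 10 members, the other lists and the tests were chosen with earlier results of these data known. Apart from Ptger2 and Alox5, other eicosanoid genes are named where called in a comparison with control clones. Similar genes are named for the 3 members with the smallest adjusted p over the 3 own-run comparisons.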

Additional observations from a re-analysis of the deposited data

Results flagged for a closer look

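The change of Pla2g7, which is not among the 10 genes, differed between labels: it was larger in ATF1/CREB1/CREM-KO than in ATF1-KO by 0.74 on the log2 scale (95% interval 0.32 to 1.16, limma adjusted p = 0.0470 in the fit of all 22 libraries). The adjusted p was 0.0554 with a pseudocount of 0.1 and 0.0863 without the filter on low values. No member was set apart in the examination of 16 groups of 5 libraries for a single distant library.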

How the results depend on the processing

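For the 8 members, 0 calls in the 4 comparisons with control clones was also the count under each alternative run for it, except for 3 calls in ATF1/CREB1/CREM-KO without its replicate 1 (0 to 3 over the omissions of single libraries). Signs turned mostly when all 11 control clones served as controls, which mixes the low run 2 with the others. Log2 changes were then, for ATF1-KO, 0.38 for Pla2g4a, 0.51 for Ptger4, 0.63 for Ptges2, 0.11 for Ptges3 and 0.56 for Ptgs1. For ATF1/CREB1-KO they were -1.61 for Pla2g4a, -0.78 for Ptger1, -0.90 for Ptger4, -0.33 for Ptges, -1.42 for Ptges2, -1.46 for Ptgs1 and -1.38 for Ptgs2. For ATF1/CREB1/CREM-KO they were 0.062 for Ptges2, 0.15 for Ptges3, 0.62 for Ptgs1 and 0.093 for Abcc4. The median of all genes moved to 0.36, -0.96 and 0.28 with these controls. Median-ratio scaling turned Ptges2 with both labels together to 0.042, and the Pla2g4a difference of ATF1/CREB1/CREM-KO minus ATF1/CREB1-KO to 0.014; the cause was not tested.

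Over omissions of single libraries, signs turned for Pla2g4a (-0.091 to 0.49), Ptger1 (-0.40 to 0.72), Ptges (-0.039 to 0.46) and Ptges2 (-0.13 to 0.76) in ATF1/CREB1-KO. They also turned for Ptges3 in ATF1-KO (-0.16 to 0.014) and, in ATF1/CREB1/CREM-KO, for Ptger4 (-0.00046 to 0.31), Ptges (-0.87 to 0.52) and Ptgs1 (-0.13 to 0.047). With both labels together they turned for Ptges (-0.27 to 0.35) and Ptges2 (-0.30 to 0.093).

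Counts over all genes moved more. The 9 calls in ATF1/CREB1-KO became 0 without the filter, 18 with median-ratio scaling, 609 with run as a covariate and 4260 with all control clones, and 0 to 60 over the omissions. The 1216 calls in ATF1/CREB1/CREM-KO became 710 without the filter, 137 with all control clones and 185 to 3317 over the omissions. Their split was 518 higher and 698 lower, and 685 higher and 606 lower with median-ratio scaling; with both labels together it was 419 and 685, and 632 and 551. With the replicate block in ATF1-KO, 0 members and 0 genes were called; same-numbered libraries correlated at -0.10 to 0.08, so the numbers were not taken to pair them, and 1 of 5 numbers correlated best with its own. The other comparisons share no replicate numbers. TPM gives no read depth, so what depth limits could not be set.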
